A study of Mus musculus with 9 samples.

Results

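The 32 immediate early response genes described here were chosen by symbol, among 47729 gene rows in all, and none was left out: 31 had enough reads to be tested and Nr4a3 did not. They encode the Fos and Jun subunits of the transcription factor AP-1, the EGR, NR4A and KLF factors, Atf3, Maff, Csrnp1 and Myc, the IER proteins, the dual specificity phosphatases (DUSP), the messenger RNA decay factors Zfp36, Zfp36l1 and Btg1, and the cyclooxygenase Ptgs2. Their messenger RNA was counted in 9 libraries from cultured skeletal muscle myoblasts of FVB/N, an inbred mouse strain. The 3 groups, of 3 libraries each, were the third-cycle SRCs (SRC3), the first-cycle FRCs (FRC1) and the Parental cells (PAR). Both SRC3 and FRC1 are reserve cells, meaning cells that stay mononucleated when a myoblast culture is made to form myotubes, and the labels spell out neither abbreviation. All groups carried the same strain background with no allele or agent named. The reserve populations had been returned to growth conditions and passaged before lysis, per the labels. SRC3 and FRC1 differ in reserve cell type and in cycle together, so these cannot be told apart. How long after the last change of medium or passage the cells were lysed, and whether the replicates were separate cultures, is not given in the sources used here. All p-values thus describe the scatter among these libraries alone, and that scatter may be technical.

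Immediate early genes are transcribed within minutes of a growth factor, stress or adhesion signal, without any new protein having to be made first. The signal passes through MAP kinases or cyclic AMP to factors already sitting on DNA, among them SRF at CArG boxes and CREB at cyclic AMP response elements (CRE). Many of the products are transcription factors that start a later wave of genes, while others, such as the DUSP phosphatases and the ZFP36 proteins, shut the response down again. In skeletal muscle, Fos, Jun and Egr genes are known to be switched on when quiescent stem cells are activated, and their messenger RNA is short-lived. A steady culture therefore usually shows only a low basal level of the most transient ones.

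The promoter stretches below are examples from members with a CRE core whose levels are described further on, chosen with those levels known. They come from RefSeq on build GRCm38.p6, which gave a window of 250 bases before to 50 after the start for 25 of the 32 genes. No window was matched for Klf10, Egr3, Dusp4, Ier2, Fosl1, Egr1 and Myc. Each is written along the strand of its gene, and capitals mark the CRE core TGACG or its reverse CGTCA, the full CRE TGACGTCA, or, in Dusp5, also a pair of abutting CArG boxes.
Nr4a2 (chr2:57124104-57124213, minus strand): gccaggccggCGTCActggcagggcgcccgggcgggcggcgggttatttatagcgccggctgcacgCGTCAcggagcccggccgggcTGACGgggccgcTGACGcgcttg
Nr4a1 (chr15:101266606-101266815, plus strand): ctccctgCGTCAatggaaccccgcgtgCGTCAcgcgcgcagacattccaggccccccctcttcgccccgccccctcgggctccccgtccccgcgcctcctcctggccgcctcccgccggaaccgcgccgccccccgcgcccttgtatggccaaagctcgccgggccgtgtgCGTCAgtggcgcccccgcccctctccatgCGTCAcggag
Dusp1 (chr17:26508598-26508672, minus strand): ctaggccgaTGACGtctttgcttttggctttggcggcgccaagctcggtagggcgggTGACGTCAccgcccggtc
Maff (chr15:79347460-79347519, plus strand): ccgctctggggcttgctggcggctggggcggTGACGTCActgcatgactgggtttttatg
Dusp5 (chr19:53529045-53529104, plus strand): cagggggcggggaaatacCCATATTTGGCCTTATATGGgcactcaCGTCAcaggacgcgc
Fosb (chr7:19310086-19310145, minus strand): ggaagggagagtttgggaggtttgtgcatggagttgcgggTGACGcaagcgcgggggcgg
Klf4 (chr4:55532675-55532724, minus strand): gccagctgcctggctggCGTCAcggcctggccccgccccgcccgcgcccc
The stretches of Nr4a2 and Nr4a1 lie within the 250 bases before the RefSeq start and hold 4 CRE cores each. Nr4a3 holds 4 as well, so that the 3 members with at least 4 cores in a single window were the 3 NR4A genes, against 0.255% of the 27018 genes with a window. The core TGACG, searched on both strands and counted also inside a full CRE, which holds it on both strands, was in the windows of 17 of 25 members (68%) and of 23% of all genes. The full CRE was in 2 of 25, Maff and Dusp1, against 2.03% of all genes. A CArG box was in 3 of 25, Zfp36, Egr2 and Dusp5, against 1.81%. The AP-1 element TGANTCA was in 2 of 25 against 8.98%, and the TATA element TATAAA in 5 of 25 against 15.7%. Several members have more than one start, and a gene counts here if any of its windows holds the letters. Among the tested members with a window, the core was in 6 of the 9 that were lower in SRC3 than in FRC1, both of the higher ones, and 8 of the 13 that were not called. These matches are letters in a window and were not tied to binding of any factor.

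At the loci of the 32 genes, annotated in GENCODE M21 on GRCm38, the median span was 6.26 kb, against 21.69 kb for the 12515 tested genes with a location. Jun, Jund, Ier2, Ier5 and Zfp36 lay in 1 unbroken exonic block. None overlapped another gene on its own strand. On the opposite strand Fosl1 shared 1163 exonic bases with Ccdc85b, Jun 232 with Junos, Jund 877 with Gm11175, Junb 173 with Prdx2, Dusp5 547 with AC137853.2, Zfp36l1 1672 with Gm26669, Csrnp1 224 with 1700019L13Rik, Zfp36 125 with Gm44710 and Dusp1 11 with Ergic1. The labels name a stranded library protocol, but the strand setting of the counting is not given in the sources used here. If strand was ignored, reads in bases shared with a counted partner may have been set aside as ambiguous and lost. AC137853.2 and 1700019L13Rik had no row, so their reads may instead have been added. The counts of these genes are uncertain to that extent. Over all genes, ambiguous reads were 1.175 to 1.214% of uniquely aligned reads in each library, which does not give the loss for single members.

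The libraries held 13012996 to 14336279 gene counts, and 3 counts in 1 library corresponded to 0.209 to 0.231 CPM, a gene's reads relative to all gene reads of its library. Levels are CPM, scaled for library composition, as means ± SD over 3 libraries, and a gene was called where the adjusted p of edgeR's quasi-likelihood test was below 0.05. Of the myoblast markers, Myod1 stood at 539 ± 18.8 CPM in SRC3, 770 ± 15.8 in FRC1 and 776 ± 15.1 in PAR, and Pax7, Des and Cdh15 were also present, whereas Myf5 had 1 read over all 9 libraries. Summed over 7 differentiating muscle markers, the libraries ranged over 12.99 to 29.7 CPM in SRC3, 87.4 to 109 in FRC1 and 11.1 to 14.4 in PAR, and 5 of the 6 tested were called higher in FRC1 than in PAR. Among 5 pericyte and smooth muscle markers the sums were 54.7 to 66.9 CPM in SRC3, 178 to 243 in FRC1 and 64.0 to 74.0 in PAR, and the 2 tested ones went opposite ways in SRC3. Acta2 stood at 8.58 CPM in SRC3, 199 in FRC1 and 67.1 in PAR, and Cspg4 at 52.3 CPM in SRC3, 7.81 in FRC1 and 0.694 in PAR, called in all 3 comparisons (adjusted p for SRC3 over PAR 0.000674 and 1.35e-06). Macrophage, endothelial, glial and fibro-adipogenic markers summed to at most 7.76 CPM per list in any library, and Adgre1, Lyz2, Kdr, Emcn, Sox10, S100b, Lum and Dpp4 had no read at all. In bulk RNA, fewer cells expressing a gene and less RNA per cell cannot be told apart.

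Of the members called, more stood higher than lower in both reserve cell groups relative to PAR. Of the members called between SRC3 and FRC1, more were lower than higher in SRC3, a balance that was even, at 9 higher and 9 lower, without FRC1 replicate 2. In FRC1 against PAR, 15 members were higher, 2 were lower and 14 were not called, so 54.8% of the tested members were called, against a background of 28.3% of all 12540 tested genes (13.6% higher and 14.7% lower). In SRC3 against PAR, 14 were higher, 7 lower and 10 not called (67.7%), against 37.9% of all genes (17.8% higher, 20.2% lower). SRC3 compared with FRC1 had 4 members higher, 11 lower and 16 not called (48.4%), against 33.5% of all genes (15.5% higher, 18% lower). The median log2 fold change of the tested members was 0.26 in FRC1 over PAR, 0.21 in SRC3 over PAR and -0.08 in SRC3 over FRC1, where all genes had medians of 0.0034, 0.0057 and -0.00028. The libraries of the 2 groups did not overlap for 18 members higher and 2 lower in FRC1 against PAR, where the background was 44.2% of all genes (21.8% higher, 22.4% lower). They did not overlap for 15 and 7 in SRC3 against PAR (49.1% of all genes, 23.7% higher and 25.4% lower), and for 7 and 12 in SRC3 against FRC1 (42.8%, 19.9% higher and 22.9% lower). Calls beyond 2-fold were made for 3 members in FRC1 against PAR (9.68%, against 2.63% of all genes), 4 in SRC3 against PAR (12.9%, against 6.71%) and 3 in SRC3 against FRC1 (9.68%, against 6.53%). The median absolute log2 fold change of the members was 0.28, 0.35 and 0.27 in these comparisons, against 0.16, 0.18 and 0.16 for all genes. The comparisons share the PAR or FRC1 libraries and so are not independent of each other. The member Fos passed the count filter through its FRC1 libraries alone, so it was tested only because it was higher there, and its call is given as a description. Without Fos, 14 of 30 members were higher and 2 lower in FRC1 than in PAR (53.3% called), 2 of them beyond 2-fold (6.67%).

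**Figure D1:**
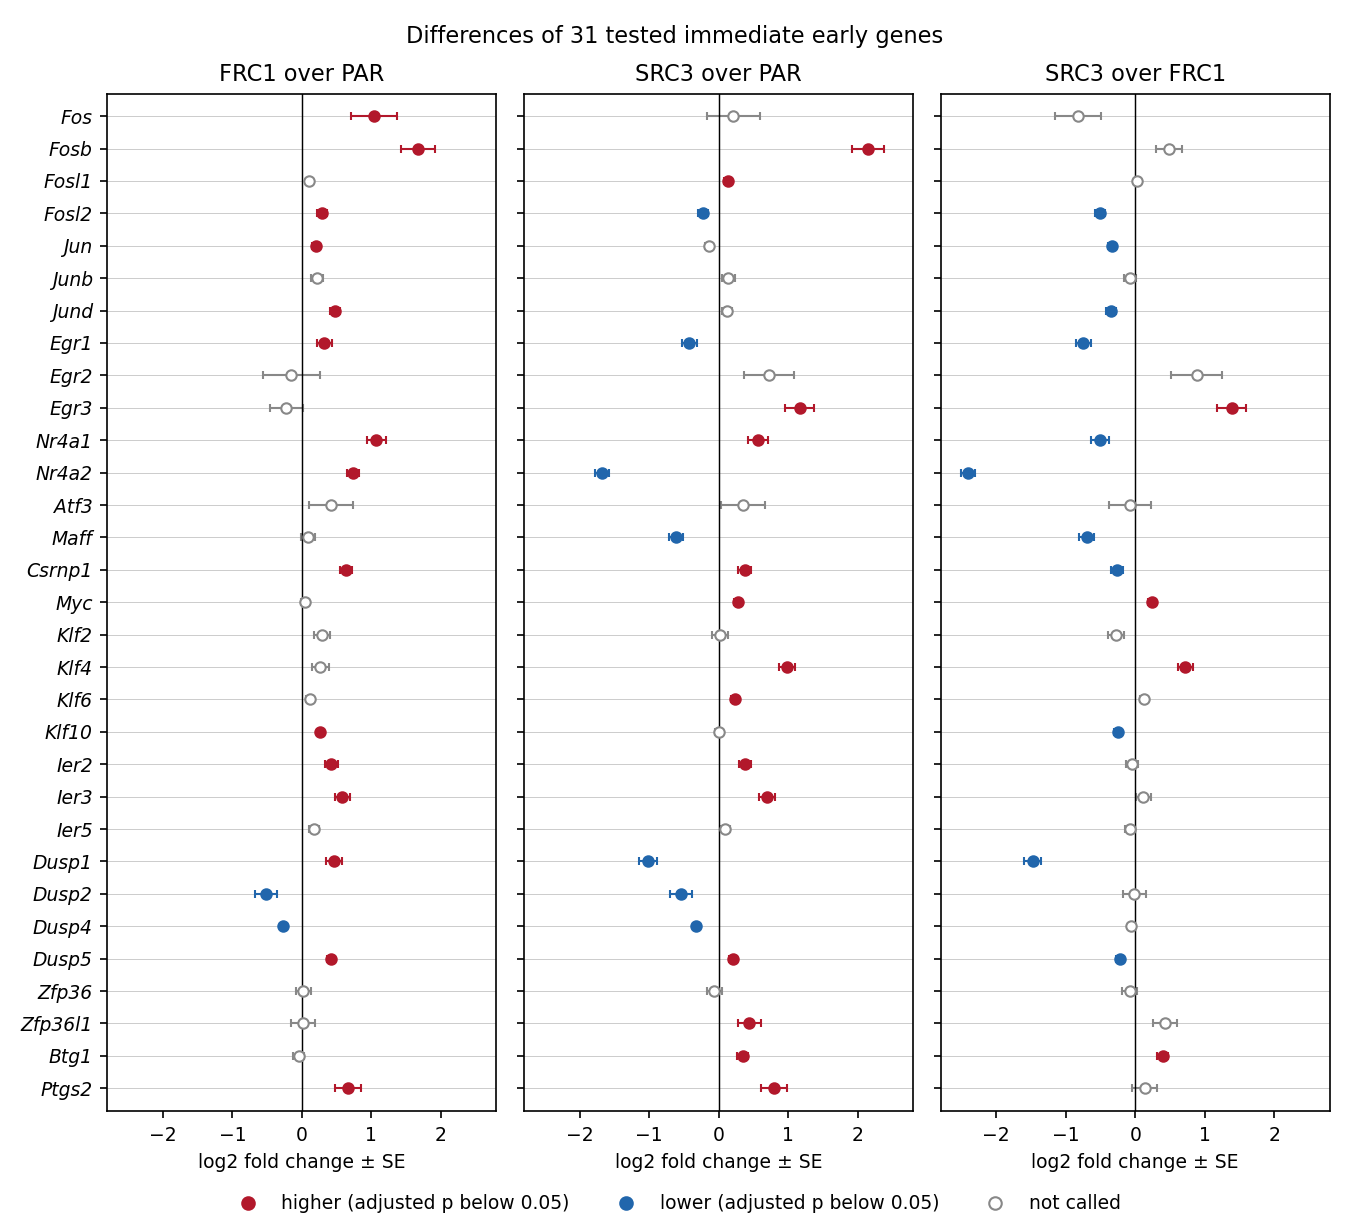
Log2 fold change ± SE (x axis) of the 31 tested immediate early genes (y axis) in FRC1 over PAR, SRC3 over PAR and SRC3 over FRC1, from 3 libraries a group. Filled red points are called higher and filled blue points called lower at adjusted p below 0.05, and open grey points are not called. Red points outnumber blue ones in the comparisons with PAR (15 to 2 and 14 to 7), and blue outnumber red in SRC3 over FRC1 (11 to 4, or 9 to 9 without FRC1 replicate 2).

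The groups of called members split into several patterns rather than 1. Nr4a2, Dusp1, Egr1 and Fosl2 were higher in FRC1 than in PAR and lower in SRC3 than in either group. Fosb, Ier2, Ier3 and Ptgs2 were higher than PAR in both SRC3 and FRC1, with no call between these. Egr3, Klf4, Myc and Btg1 were higher in SRC3 than in both other groups and not called between FRC1 and PAR. Nr4a1, Csrnp1 and Dusp5 were highest in FRC1 and intermediate in SRC3, each step being called. Jun, Jund and Klf10 were higher in FRC1 than in both other groups, which were not called apart. Fosl1, Klf6 and Zfp36l1 were called in SRC3 over PAR alone, Dusp2 and Dusp4 were lower than PAR in both reserve cell groups, Maff was lower in SRC3 than in both others, and Fos was called in FRC1 over PAR alone. Junb, Egr2, Atf3, Klf2, Ier5 and Zfp36 were called in no comparison. The FRC1 libraries, in which 15 members were higher than in PAR, were also those with the higher summed differentiating muscle and smooth muscle markers given above, and the part of those markers in the result was not tested. In SRC3, 4 of the 6 tested myoblast markers were lower and 1 higher than in PAR, and 4 were lower than in FRC1. Of the 6 tested differentiating muscle markers, 4 were higher and 1 lower than in PAR (list median 1.27 on the log2 scale), and all 6 were lower than in FRC1. Their sums in SRC3, 14.3, 29.7 and 12.99 CPM, overlapped those in PAR, 14.4, 11.1 and 12.0, and replicate 2 was the highest. The part of these markers was not tested either.

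**Figure D2:**
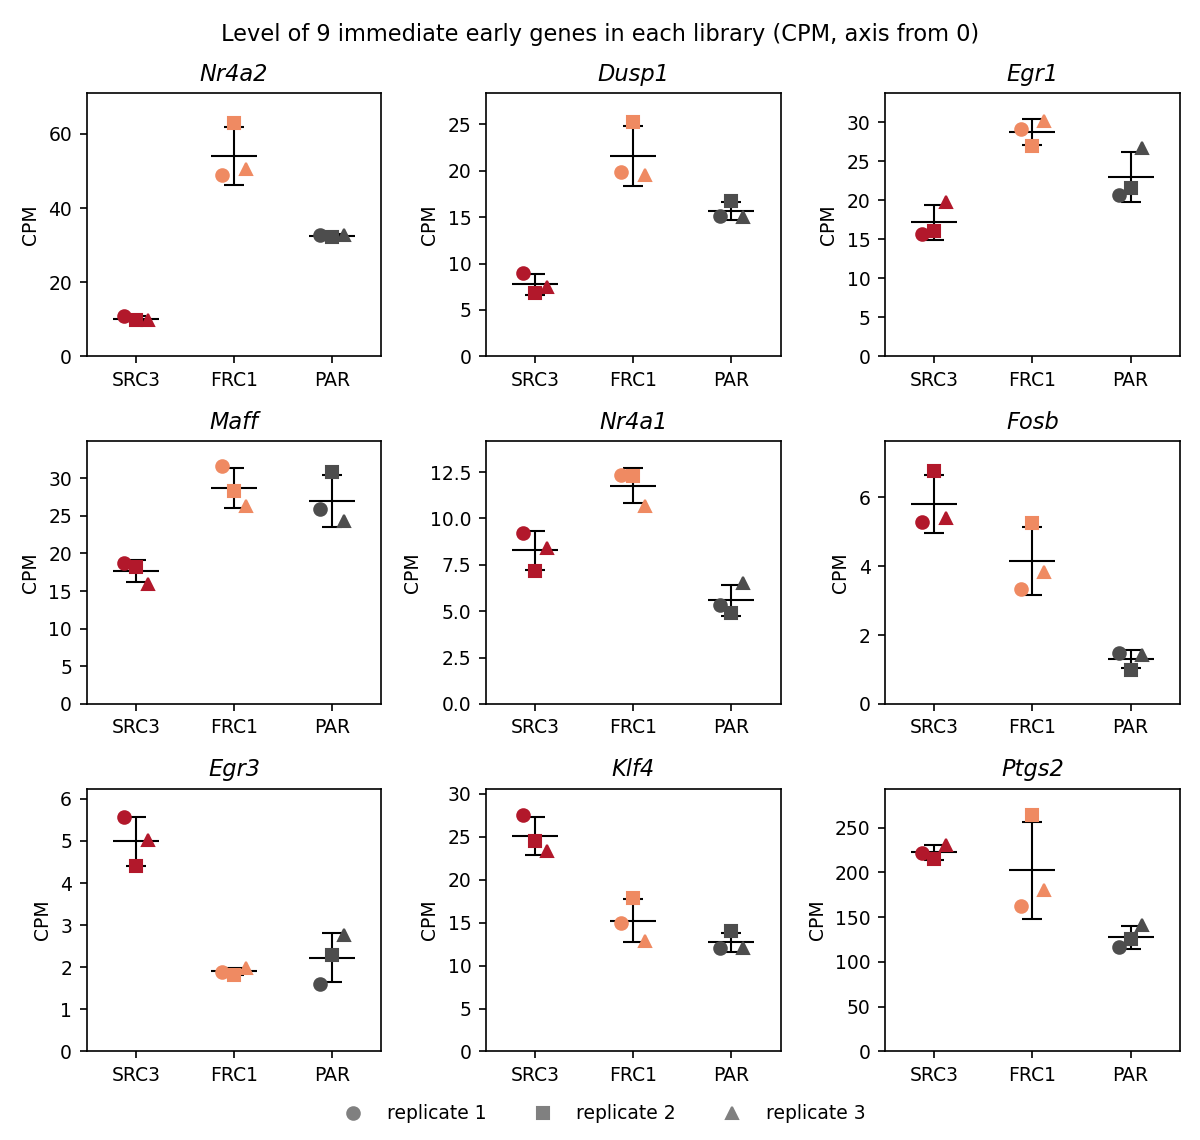
CPM (y axis, from 0) of 9 immediate early genes in the SRC3, FRC1 and PAR libraries, 1 symbol per library, with bars for the mean ± SD of 3. Nr4a2, Dusp1, Egr1 and Maff are lowest in SRC3, whereas Fosb, Egr3 and Klf4 are highest there, and the FRC1 libraries of Ptgs2 spread from 162 to 264 CPM.

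The NR4A genes encode orphan nuclear receptors that act without a known hormone and are induced by cyclic AMP and calcium signals. Nr4a2 (ENSMUSG00000026826, chromosome 2, 57106830 to 57124003, minus strand, GRCm38) had 10.9, 9.71 and 9.87 CPM in SRC3, against 48.8, 63.0 and 50.4 in FRC1 and 32.7, 32.2 and 32.8 in PAR. The 3 groups did not overlap, and SRC3 was the lowest by a wide margin. Its level in SRC3 was 5.32-fold lower than in FRC1 (log2 fold change -2.41, SE 0.10, adjusted p = 2.07e-13) and 3.198-fold lower than in PAR (-1.68, SE 0.11, adjusted p = 1.14e-10). In FRC1 it was 1.66-fold higher than in PAR (0.73, SE 0.085, adjusted p = 3.59e-06). Its difference between SRC3 and FRC1 was the largest of any tested member in the 3 comparisons, and its calls held under all 16 alternatives tried.

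Nr4a1 (ENSMUSG00000023034, chromosome 15, 101254269 to 101274795, plus strand), which encodes the relative Nur77, was at 9.23, 7.17 and 8.43 CPM in SRC3, 12.3, 12.3 and 10.7 in FRC1 and 5.32, 4.90 and 6.53 in PAR. Here PAR was the lowest group and FRC1 the highest, again without overlap. FRC1 exceeded PAR 2.103-fold (log2 fold change 1.07, SE 0.14, adjusted p = 1.22e-05) and SRC3 exceeded PAR 1.48-fold (0.57, SE 0.15, adjusted p = 0.00468), while SRC3 was 1.42-fold below FRC1 (-0.51, SE 0.13, adjusted p = 0.00543). Nr4a3, the remaining receptor, had 2, 1 and 0 reads in SRC3, 2, 5 and 3 in FRC1 and 2 in each PAR library, too few for a test. Per kilobase of exon, Nr4a1 made up 48.3 ± 2.1% of the summed NR4A level in SRC3, 20.2 ± 2.2% in FRC1 and 16.5 ± 2.0% in PAR, and Nr4a2 51.5 ± 2.0%, 79.6 ± 2.1% and 83.3 ± 2.0%. The genes thus stood near parity in SRC3, whereas Nr4a2 held most of the family's level in FRC1 and PAR. Both promoters printed above carry 4 CRE cores, and Nr4a2 fell and Nr4a1 rose in SRC3 relative to PAR.

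**Figure D3:**
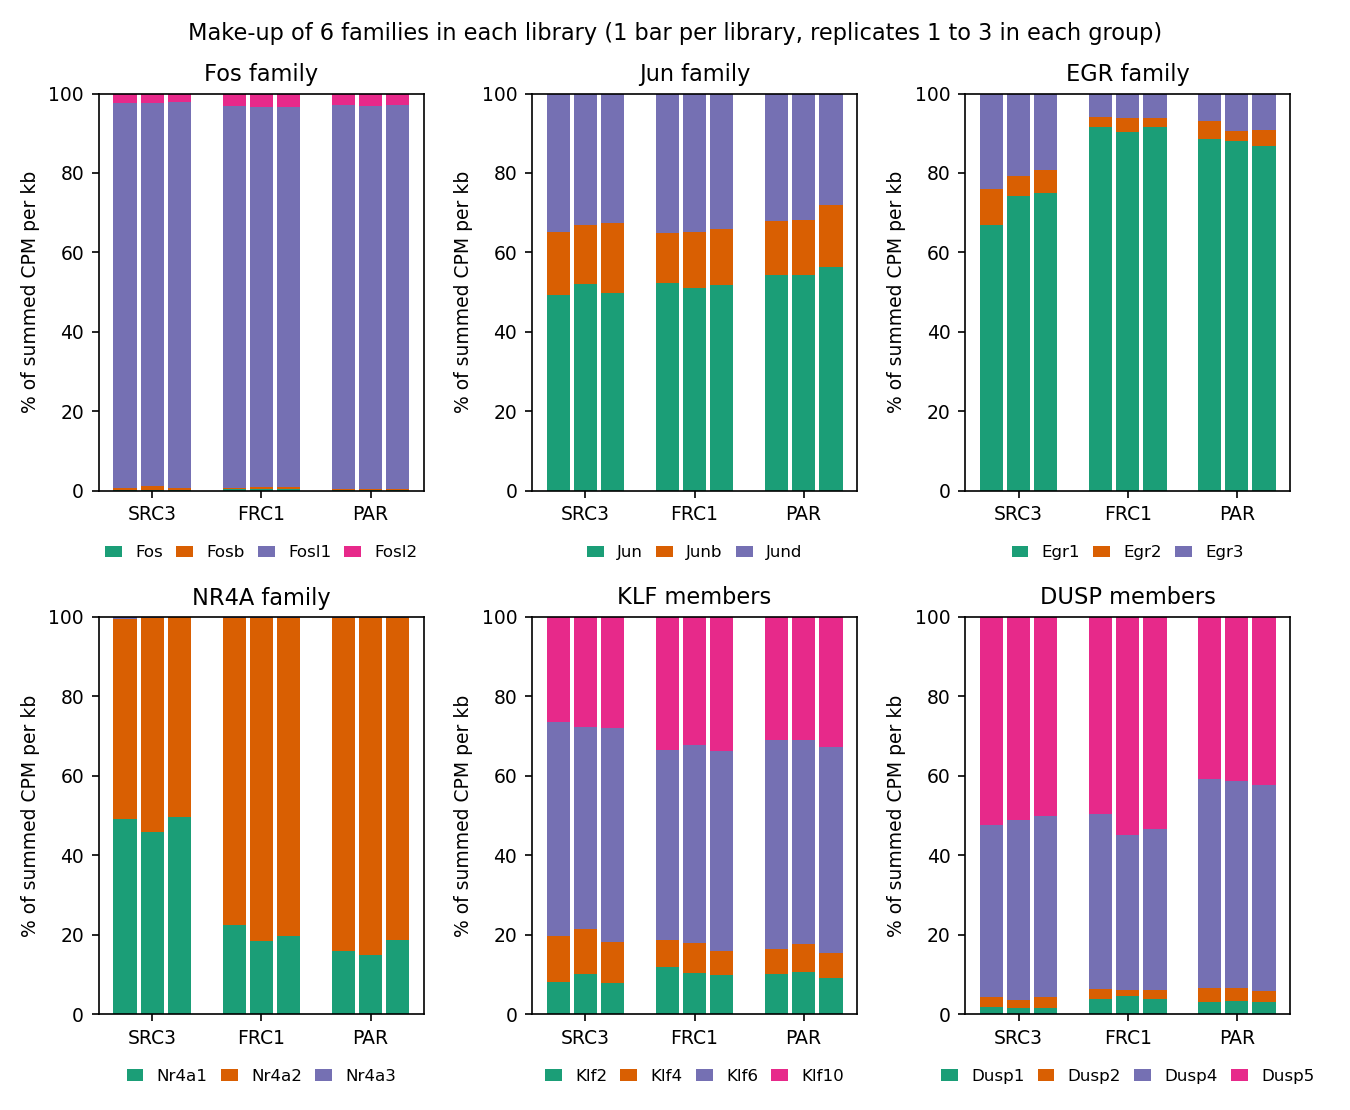
Share of the summed CPM per kilobase of exon (y axis, %) that each member held within 6 families, 1 bar per library, with SRC3, FRC1 and PAR from left to right. Nr4a1 takes 48.3% of the NR4A level in SRC3 against 20.2% in FRC1 and 16.5% in PAR, Egr3 takes 21.4% of the EGR level in SRC3 against 6.13% and 8.57%, and Fosl1 holds 95.8 to 96.7% of the Fos family level on average in each group.

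Among the dual specificity phosphatases, which remove phosphate from MAP kinases and so limit the signals that induce these genes, the members moved apart. Dusp1 (ENSMUSG00000024190, chromosome 17, 26505590 to 26562128, minus strand), a nuclear phosphatase for p38, JNK and ERK, was at 9.01, 6.78 and 7.44 CPM in SRC3, 19.8, 25.3 and 19.6 in FRC1 and 15.2, 16.8 and 15.1 in PAR. Every SRC3 library lay below every other library, and every FRC1 library above every PAR library. SRC3 was 2.78-fold below FRC1 (log2 fold change -1.48, SE 0.13, adjusted p = 1.64e-08) and 2.02-fold below PAR (-1.01, SE 0.13, adjusted p = 3.89e-06), and FRC1 was 1.38-fold above PAR (0.47, adjusted p = 0.00437). Its promoter holds a full CRE and another CRE core. Dusp4, an ERK phosphatase, had 168, 176 and 168 CPM in SRC3, 189, 174 and 169 in FRC1 and 209, 214 and 217 in PAR. PAR was thus highest for Dusp4, by 1.25-fold over SRC3 (log2 fold change of SRC3 over PAR -0.32, SE 0.051, adjusted p = 4.08e-05) and by 1.20-fold over FRC1 (-0.27, SE 0.050, adjusted p = 0.000535).

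Dusp5, a nuclear phosphatase specific for ERK, took the opposite direction to Dusp4, with 184, 179 and 167 CPM in SRC3, 193, 221 and 200.1 in FRC1 and 146, 153 and 160.5 in PAR. FRC1 was highest and PAR lowest, without overlap. The log2 fold change was 0.42 in FRC1 over PAR (adjusted p = 2.41e-05), 0.21 in SRC3 over PAR (adjusted p = 0.00832) and -0.21 in SRC3 over FRC1 (adjusted p = 0.00696). The last call was lost without FRC1 replicate 2 (adjusted p = 0.068, range over the alternatives 0.00062 to 0.068), and that over PAR without PAR replicate 1 (0.055, range 0.0015 to 0.055). Dusp2, a phosphatase known best from lymphocytes, had 6.52, 5.93 and 7.06 CPM in SRC3, 8.03, 4.68 and 7.05 in FRC1 and 10.0, 9.33 and 8.95 in PAR. Both reserve cell groups lay below PAR for Dusp2. The log2 fold change was -0.53 in SRC3 over PAR (SE 0.16, adjusted p = 0.0114) and -0.52 in FRC1 over PAR (SE 0.16, adjusted p = 0.0174). Both depended on 1 library at a time: that of SRC3 was lost without PAR replicate 1 (adjusted p = 0.054, range 0.0017 to 0.054), and that of FRC1 without PAR replicate 1 (0.073) or FRC1 replicate 2 (0.11, range 0.0032 to 0.11). Per kilobase, Dusp5 and Dusp4 dominated the phosphatases in this set, with Dusp4 at 44.8 ± 1.2% of the summed level in SRC3, 41.2 ± 2.6% in FRC1 and 52.2 ± 0.52% in PAR.

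The EGR factors are zinc finger proteins that bind GC-rich elements, and Egr1 is the classic serum response gene. Egr1 (ENSMUSG00000038418) had 15.7, 16.0 and 19.8 CPM in SRC3, 29.2, 27.0 and 30.2 in FRC1 and 20.6, 21.7 and 26.7 in PAR. FRC1 was highest and SRC3 lowest, and the groups did not overlap. SRC3 was 1.68-fold below FRC1 (log2 fold change -0.75, SE 0.11, adjusted p = 1.55e-05) and 1.34-fold below PAR (-0.42, SE 0.11, adjusted p = 0.0045). The difference from PAR was lost without PAR replicate 3 (adjusted p = 0.052, range 9.9e-05 to 0.052). FRC1 was 1.25-fold above PAR (0.32, adjusted p = 0.0229), a call lost without PAR replicate 1 (0.14), PAR replicate 2 (0.099) or FRC1 replicate 3 (0.1), within a range of 0.0037 to 0.14.

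Egr3 (ENSMUSG00000033730, chromosome 14, 70077203 to 70082614, plus strand), a relative with the same DNA preference that is needed for muscle spindles, moved the other way, with 5.57, 4.39 and 5.01 CPM in SRC3, 1.89, 1.82 and 1.99 in FRC1 and 1.61, 2.30 and 2.77 in PAR. All SRC3 libraries lay above all others. The level in SRC3 was 2.62-fold that of FRC1 (log2 fold change 1.39, SE 0.21, adjusted p = 3.08e-05) and 2.25-fold that of PAR (1.17, SE 0.21, adjusted p = 0.000135). FRC1 and PAR overlapped (-0.22, adjusted p = 0.529). Egr2, the factor of Schwann cells and hindbrain, stayed near the detection limit, at 1.20 ± 0.39 CPM in SRC3, 0.648 ± 0.11 in FRC1 and 0.717 ± 0.24 in PAR, and was called in no comparison. Per kilobase, Egr3 held 21.4 ± 2.5% of the summed EGR level in SRC3, 6.13 ± 0.087% in FRC1 and 8.57 ± 1.3% in PAR, with Egr1 at 72.0 ± 4.5%, 91.2 ± 0.65% and 87.8 ± 0.89%.

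AP-1 is a pair of a Fos and a Jun protein, or of Jun proteins alone, and in these cells nearly all Fos family messenger RNA was Fosl1. Fosl1, which encodes Fra-1, was at 265, 269.6 and 282 CPM in SRC3, 263, 276 and 264 in FRC1 and 243, 244 and 259 in PAR. It held 96.7 ± 0.29%, 95.8 ± 0.24% and 96.6 ± 0.24% of the family's summed level per kilobase in SRC3, FRC1 and PAR. The groups were close, with a log2 fold change of 0.13 in SRC3 over PAR (adjusted p = 0.033), a call lost with no count filter (0.059) and without PAR replicate 1 (0.12), PAR replicate 2 (0.11) or SRC3 replicate 3 (0.09), in a range of 0.02 to 0.12. In FRC1 over PAR it was not called (0.11, adjusted p = 0.0983).

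Fosb (ENSMUSG00000003545, chromosome 7, 19302696 to 19310051, minus strand) had the largest relative rise of the set in both comparisons with PAR, from a low base. It had 5.27, 6.78 and 5.39 CPM in SRC3, 3.33, 5.24 and 3.84 in FRC1 and 1.47, 0.994 and 1.42 in PAR. No library of either reserve cell group reached down to PAR. Fosb was 4.44-fold higher in SRC3 than in PAR (log2 fold change 2.15, SE 0.23, adjusted p = 3.46e-07) and 3.18-fold higher in FRC1 than in PAR (1.67, SE 0.24, adjusted p = 4.34e-05), and every alternative kept both calls. Between SRC3 and FRC1 the difference was not called (0.48, SE 0.19, adjusted p = 0.053, range 0.012 to 0.19), but it was called under 4 of 16 alternatives, among them the fit without FRC1 replicate 2 (0.012). Fos itself, the archetype of the class, had 8, 12 and 9 reads in SRC3, 14, 20 and 20 in FRC1 and 9, 9 and 8 in PAR. The FRC1 libraries lay above all others, 2.05-fold over PAR (log2 fold change 1.04, SE 0.33, adjusted p = 0.0239). That call was lost under 7 of 15 alternatives (range 0.021 to 0.12), namely DESeq2 (0.12), no count filter (0.052) and the fits without PAR replicate 1 (0.074), PAR replicate 2 (0.053), PAR replicate 3 (0.085), FRC1 replicate 2 (0.081) or FRC1 replicate 3 (0.091).

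Fosl2, which encodes Fra-2, had 32.2, 32.8 and 29.7 CPM in SRC3, 42.2, 46.7 and 45.0 in FRC1 and 35.5, 39.2 and 35.4 in PAR, so that SRC3 was lowest and FRC1 highest without overlap. SRC3 was 1.42-fold below FRC1 (log2 fold change -0.50, SE 0.072, adjusted p = 1.54e-05) and 1.16-fold below PAR (-0.22, SE 0.073, adjusted p = 0.0235), the smaller difference being lost with DESeq2 (0.054) and without PAR replicate 2 (0.13) or SRC3 replicate 3 (0.092), in a range of 0.02 to 0.13. FRC1 exceeded PAR 1.22-fold (0.28, adjusted p = 0.00507). Jund, the Jun protein least dependent on stimulation, had 63.7, 62.3 and 59.6 CPM in SRC3, 77.3, 87.2 and 72.2 in FRC1 and 56.7, 61.6 and 52.3 in PAR. FRC1 stood above both others, 1.39-fold over PAR (0.47, SE 0.072, adjusted p = 6.2e-05), and SRC3 was 1.28-fold below FRC1 (-0.35, SE 0.071, adjusted p = 0.000671), while SRC3 and PAR overlapped. Jun had 172, 187 and 173 CPM in SRC3, 221, 244 and 209 in FRC1 and 184, 199.96 and 201 in PAR. FRC1 was again the highest group, and SRC3 was 1.26-fold below it (-0.34, SE 0.059, adjusted p = 0.000135). FRC1 over PAR (0.20, adjusted p = 0.0132) was lost for Jun without PAR replicate 1 (0.1) or FRC1 replicate 2 (0.1), in a range of 0.0016 to 0.1. Junb, a partner that tempers Jun, was at 40.7 ± 2.9 CPM in SRC3, 42.9 ± 5.1 in FRC1 and 36.9 ± 3.8 in PAR, and overlapped in all comparisons.

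Maff is a small Maf protein that lacks an activation domain and pairs with other leucine zipper factors. Its level (ENSMUSG00000042622, chromosome 15, 79346621 to 79359076, plus strand) was 18.7, 18.3 and 15.9 CPM in SRC3, 31.6, 28.3 and 26.3 in FRC1 and 25.9, 30.8 and 24.3 in PAR. SRC3 alone was low, 1.63-fold below FRC1 (log2 fold change -0.70, SE 0.10, adjusted p = 1.78e-05) and 1.53-fold below PAR (-0.61, SE 0.10, adjusted p = 7.85e-05), and its promoter holds a full CRE. Csrnp1, a nuclear protein induced by axin, had 22.4, 23.3 and 20.1 CPM in SRC3, 24.2, 28.7 and 26.1 in FRC1 and 16.8, 17.7 and 16.3 in PAR. PAR was lowest throughout. Csrnp1 was 1.56-fold higher in FRC1 (0.64, SE 0.090, adjusted p = 3.18e-05) and 1.30-fold higher in SRC3 (0.37, adjusted p = 0.00312) than in PAR. Its lower level in SRC3 than in FRC1 (-0.26, adjusted p = 0.026) was lost under 6 of 16 alternatives, FRC1 replicate 2 giving the highest value when left out (0.15, range 0.012 to 0.15), with FRC1 replicate 3 (0.07), SRC3 replicate 1 (0.06) and SRC3 replicate 3 (0.11) among them. Atf3, a stress-induced repressor, had 2.59 ± 0.60 CPM in SRC3, 2.71 ± 0.45 in FRC1 and 2.02 ± 1.1 in PAR, with overlap in every pair of groups.

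Myc, a transcription factor that drives ribosome production and cell growth, was at 214, 235 and 201 CPM in SRC3, 180.0, 192 and 180 in FRC1 and 176, 187 and 173 in PAR. All SRC3 libraries lay above the others. The rise was small, 1.18-fold over FRC1 (log2 fold change 0.24, SE 0.057, adjusted p = 0.00306) and 1.21-fold over PAR (0.28, adjusted p = 0.00065). Klf4 (ENSMUSG00000003032, chromosome 4, 55527143 to 55532466, minus strand), a zinc finger factor linked to cell cycle exit and to pluripotency, had 27.5, 24.5 and 23.3 CPM in SRC3, 15.0, 17.8 and 12.8 in FRC1 and 12.1, 13.999 and 12.0 in PAR. SRC3 was again the highest, and FRC1 and PAR overlapped. Klf4 was 1.65-fold higher in SRC3 than in FRC1 (0.72, SE 0.11, adjusted p = 3.47e-05) and 1.98-fold higher than in PAR (0.99, SE 0.11, adjusted p = 8.36e-07). Within the KLF members Klf4 held 11.1 ± 0.67% of the summed level per kilobase in SRC3, 6.80 ± 0.82% in FRC1 and 6.49 ± 0.41% in PAR.

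Klf10, which is induced by TGF-beta, was at 84.9 ± 2.0 CPM in SRC3, 101 ± 2.8 in FRC1 and 84.5 ± 0.79 in PAR. FRC1 alone was high for Klf10, with a log2 fold change of 0.26 over PAR (adjusted p = 0.000694) and -0.25 in SRC3 over FRC1 (adjusted p = 0.000572). Klf6, an early response factor of injured tissue, was at 173 ± 13 CPM in SRC3, 159 ± 10 in FRC1 and 146 ± 4.7 in PAR, and SRC3 exceeded PAR by 0.24 (adjusted p = 0.00341). Klf2, a factor best known from endothelium, was at 12.0 ± 1.3, 14.5 ± 1.3 and 11.9 ± 1.3 CPM in SRC3, FRC1 and PAR and was not called. The difference passed under 3 of 16 alternatives in FRC1 over PAR (adjusted p in a range of 0.039 to 0.27) and 2 of 16 in SRC3 over FRC1 (0.035 to 0.24).

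The IER genes were named for their early response to growth factors. Ier3, whose product is linked to cell survival, had 21.3, 21.4 and 22.2 CPM in SRC3, 17.9, 24.0 and 17.9 in FRC1 and 12.5, 13.999 and 13.6 in PAR. The reserve cell libraries all lay above PAR, SRC3 by 1.62-fold (log2 fold change 0.70, SE 0.11, adjusted p = 4.61e-05) and FRC1 by 1.497-fold (0.58, SE 0.11, adjusted p = 0.000624). Ier2 had 34.9, 37.2 and 29.7 CPM in SRC3, 31.7, 37.5 and 36.0 in FRC1 and 25.6, 25.5 and 27.3 in PAR. It was likewise above PAR in both groups, by 0.38 on the log2 scale in SRC3 (SE 0.088, adjusted p = 0.00202) and by 0.43 in FRC1 (adjusted p = 0.00116). Ier5, linked to the heat shock response, was at 60.3 ± 2.5 CPM in SRC3, 63.5 ± 7.7 in FRC1 and 56.3 ± 0.66 in PAR and was not called.

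Ptgs2, the inducible cyclooxygenase that makes prostaglandins, was among the most abundant members, and its FRC1 libraries spread widely. It had 221, 215 and 231 CPM in SRC3, 162, 264 and 181 in FRC1 and 116, 125 and 141 in PAR. No reserve cell library reached down to the PAR range, and FRC1 replicate 2 was the highest of all 9 libraries. SRC3 was 1.74-fold above PAR (log2 fold change 0.80, SE 0.19, adjusted p = 0.0147), lost without PAR replicate 2 (0.051, range 2.4e-08 to 0.051). FRC1 was 1.59-fold above PAR (0.67, SE 0.19, adjusted p = 0.039), a call lost under 10 of 16 alternatives (range 0.00057 to 0.12), among them each fit without a PAR or an SRC3 library or without FRC1 replicate 3. The SRC3 over FRC1 difference of 0.13 (adjusted p = 0.634) became 0.38 (adjusted p = 0.00063) without FRC1 replicate 2.

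Of the messenger RNA decay factors, Btg1 and Zfp36l1 were called higher in SRC3 than in PAR, and Zfp36 was called in no comparison. Btg1, an adaptor of the deadenylase complex that restrains proliferation, had 37.1, 34.0 and 41.5 CPM in SRC3, 27.5, 29.6 and 28.6 in FRC1 and 31.1, 29.0 and 28.4 in PAR. SRC3 was above both others, by 1.31-fold over FRC1 (log2 fold change 0.39, SE 0.080, adjusted p = 0.000648) and 1.27-fold over PAR (0.35, adjusted p = 0.00163). Zfp36l1, which binds AU-rich elements, had 8.35, 7.71 and 8.66 CPM in SRC3, 7.12, 7.20 and 4.06 in FRC1 and 6.29, 6.27 and 5.61 in PAR. Its rise in SRC3 over PAR (0.44, SE 0.17, adjusted p = 0.0455) was lost under 6 of 16 alternatives, namely DESeq2 (0.076) and the fits that left out PAR replicate 1 (0.081), 2 (0.08) or 3 (0.14), or SRC3 replicate 1 (0.1) or 3 (0.096), in a range of 0.012 to 0.14. Zfp36, the founding member, was at 15.1 ± 1.8 CPM in SRC3, 16.0 ± 0.69 in FRC1 and 15.7 ± 1.4 in PAR and overlapped in all comparisons.

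FRC1 replicate 2 was the highest of the FRC1 libraries for 22 of the 31 tested members, against 34.5% of all genes. Summed over the 32 genes, the level was 1954, 1958 and 1929 CPM in SRC3, 1985, 2249 and 1989 in FRC1 and 1736, 1809 and 1815 in PAR, so that FRC1 replicate 2 stood above the other libraries and PAR below both reserve cell groups. Fosl1, Klf6 and Ptgs2 were each called higher in SRC3 than in PAR, so a sum without them lowers SRC3 more by that choice. They were not the most abundant members, as Jun and Myc exceeded Klf6 and Ptgs2 in mean CPM over all libraries. Summed over the other 29 genes, SRC3 had 1283, 1315 and 1241 CPM and overlapped PAR, with 1228, 1291 and 1274. FRC1 stayed above both, at 1411, 1539 and 1387 CPM. Without FRC1 replicate 2, 13 members were called higher in FRC1 than in PAR and 1 lower. In SRC3 over FRC1, 9 were then higher and 9 lower, against 4 and 11 with that library. Several differences that were not called passed the threshold without 1 library. In FRC1 over PAR these were Junb (without PAR replicate 3 or FRC1 replicate 1), Klf2 (without SRC3 replicate 2), Klf4 (without FRC1 replicate 3) and Ier5 (without FRC1 replicate 1). In SRC3 over PAR it was Jun, lower without SRC3 replicate 2. In SRC3 over FRC1 they were Fos and Klf2, lower, and Egr2, higher, without SRC3 replicate 2, Klf6 and Zfp36l1, higher, without either SRC3 replicate 2 or FRC1 replicate 2, Zfp36l1 also without FRC1 replicate 1, and Fosb, Ier3 and Ptgs2, higher, without FRC1 replicate 2. The count of members higher in SRC3 than in FRC1 thus moved by more than 1.5 times with FRC1 replicate 2, and it was 7 without SRC3 replicate 2.

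**Figure D4:**
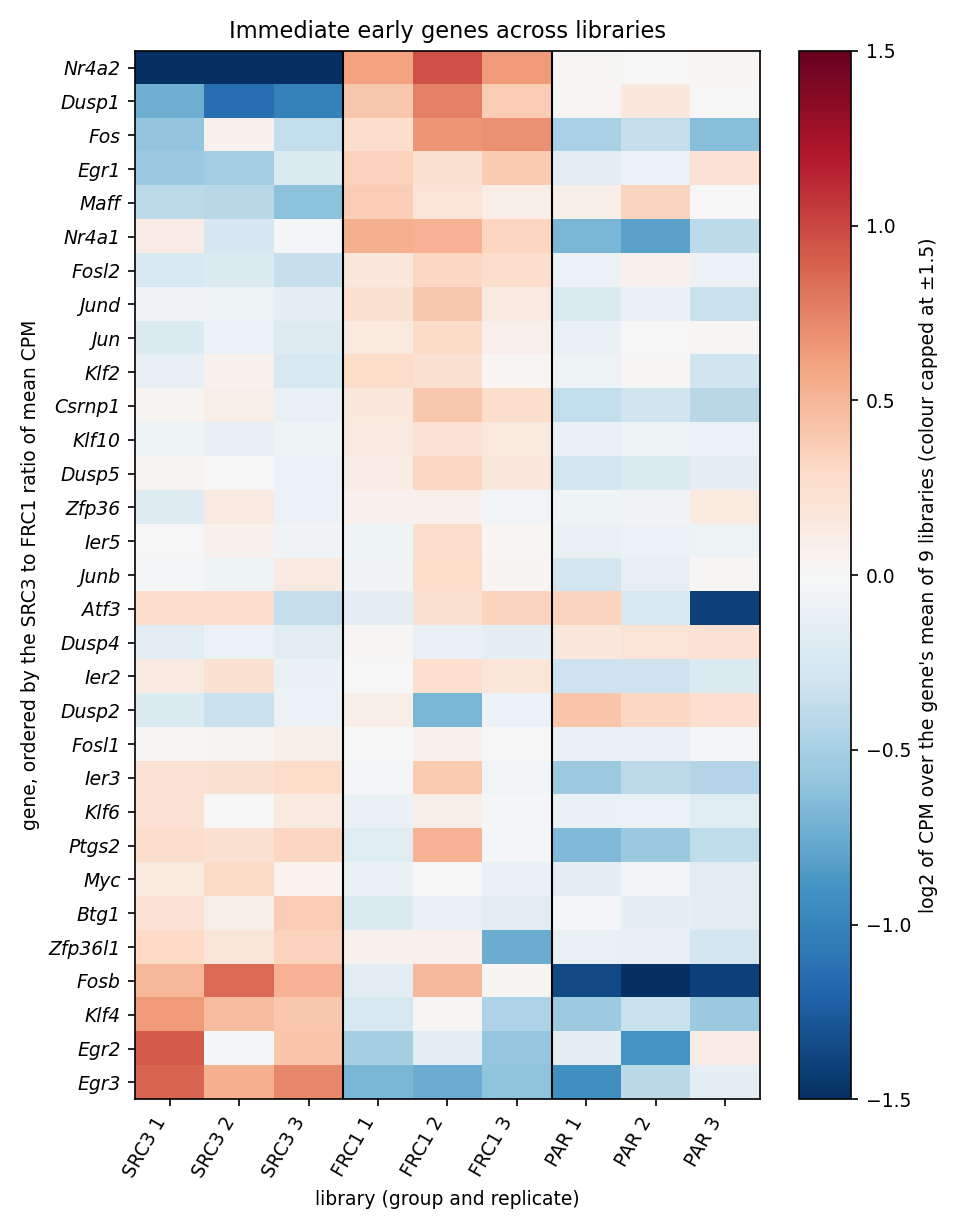
Log2 of the CPM in each of the 9 libraries over the gene's mean across libraries (colour, capped at ±1.5), for 31 immediate early genes ordered from the lowest to the highest SRC3 to FRC1 ratio of mean CPM. Nr4a2 and Dusp1, at the top, are blue in the SRC3 columns, Egr3 and Klf4, at the bottom, are red there, and FRC1 replicate 2 is the highest FRC1 library for 22 genes.

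Among the factors upstream of these genes, Srf, Elk3, Crem and Mkl2 were each called in 2 comparisons. For Elk3 the log2 fold change was 0.22 in FRC1 over PAR (adjusted p = 0.00548) and -0.18 in SRC3 over FRC1 (adjusted p = 0.0153). The latter call was lost under 4 of 16 alternatives. Of 12 tested SRF, ternary complex and CREB regulators, 2 were higher and 2 lower in FRC1 than in PAR, 2 lower and 10 not called in SRC3 against PAR, and 3 lower and 9 not called in SRC3 against FRC1, with list medians of 0.0075, 0.011 and 0.013 on the log2 scale. The shares called, 33.3, 16.7 and 25%, stand against 28.3, 37.9 and 33.5% of all genes. Srf itself, the factor of CArG boxes, averaged 97.4 ± 11 CPM in SRC3, 125 ± 2.7 in FRC1 and 91.1 ± 8.7 in PAR, which was 1.37-fold higher in FRC1 than in PAR (log2 fold change 0.46, SE 0.076, adjusted p = 0.000319) and -0.36 in SRC3 over FRC1 (adjusted p = 0.00144). Crem, whose short forms are CRE repressors, was at 6.61 ± 0.13 CPM in SRC3, 13.6 ± 1.0 in FRC1 and 11.5 ± 1.0 in PAR, 2.07-fold lower in SRC3 than in FRC1 (-1.05, SE 0.12, adjusted p = 7.36e-07) and 1.74-fold lower than in PAR (-0.80, adjusted p = 2.56e-05). Mkl2, a coactivator of SRF, was at 43.2 ± 3.8 CPM in SRC3, 47.3 ± 2.9 in FRC1 and 58.7 ± 2.6 in PAR, lower than PAR in both (adjusted p = 5.15e-05 in SRC3 and 0.00242 in FRC1). Creb1 stood at 77.5 ± 6.9, 72.6 ± 2.1 and 70.1 ± 5.9 CPM in SRC3, FRC1 and PAR. Of 26 genes of the MAP kinase pathway, 2 were higher and 4 lower in FRC1 than in PAR, 4 and 6 in SRC3 than in PAR, and 5 and 5 in SRC3 than in FRC1, so that 23.1, 38.5 and 38.5% were called, near the share over all genes. Among them the kinase gene Rps6ka5 (MSK1), which phosphorylates CREB and histone H3 at these promoters, was at 10.4 ± 0.99 CPM in SRC3, 6.66 ± 1.0 in FRC1 and 10.8 ± 0.94 in PAR, 1.62-fold lower in FRC1 than in PAR (-0.70, adjusted p = 0.000663).

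A further 33 tested genes listed as immediate early, outside the 32, gave 9 higher and 5 lower in FRC1 than in PAR, 8 and 12 in SRC3 than in PAR, and 6 and 15 in SRC3 than in FRC1. In SRC3 against PAR more of these were thus lower than higher, unlike the members. The list medians were 0.07, -0.08 and -0.19, and 42.4, 60.6 and 63.6% were called, against 28.3, 37.9 and 33.5% of all genes. The CREB target Sik1, a kinase of the salt-inducible family, was at 24.8 ± 1.5 CPM in SRC3, 62.1 ± 1.1 in FRC1 and 52.2 ± 2.9 in PAR, 2.504-fold lower in SRC3 than in FRC1 (log2 fold change -1.32, SE 0.069, adjusted p = 6.73e-12). Btg2, a p53-induced relative of Btg1, fell to 1.94 ± 0.56 CPM in SRC3, against 4.27 ± 0.48 in FRC1 and 6.61 ± 0.86 in PAR, 3.41-fold below PAR (-1.77, adjusted p = 7.34e-07), while Btg1 rose. Trib3, a pseudokinase induced by endoplasmic reticulum stress, averaged 131 ± 19 CPM in SRC3 against 59.97 ± 2.2 in FRC1 (1.13, adjusted p = 3e-06).

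A list of genes linked to AP-1, mostly of secreted and surface proteins, had 16 tested genes, and their link to AP-1 was not tested here. Of these, 6 were higher and 2 lower in FRC1 than in PAR, 3 and 6 in SRC3 than in PAR, and 3 and 7 in SRC3 than in FRC1. That is 50, 56.2 and 62.5% called, against 28.3, 37.9 and 33.5% of all genes. Il11, a cytokine of the interleukin-6 family, was at 1.91 ± 0.32 CPM in SRC3, 14.1 ± 2.5 in FRC1 and 2.804 ± 0.58 in PAR, 7.39-fold lower in SRC3 than in FRC1 (log2 fold change -2.89, SE 0.19, adjusted p = 2.87e-10). Tenascin C, Tnc, fell to 370.2 ± 92 CPM in SRC3, against 1499 ± 266 in FRC1 and 685 ± 24 in PAR, 4.05-fold lower in SRC3 than in FRC1 (-2.02, SE 0.21, adjusted p = 0.000452). Of the 12 other tested AP-1 and small Maf subunits, 2 were higher and 2 lower in FRC1 than in PAR, 3 and 3 in SRC3 than in PAR, and 1 and 3 in SRC3 than in FRC1. Here 33.3, 50 and 33.3% were called, against 28.3, 37.9 and 33.5% of all genes, so the first and last were near the background. Mafk, a relative of Maff, was at 28.7 ± 1.6 CPM in SRC3, 40.9 ± 1.9 in FRC1 and 37.3 ± 0.77 in PAR (log2 fold change of SRC3 over FRC1 -0.51, adjusted p = 8.8e-06). Mafk is also counted among the further genes listed as immediate early above, so those lists overlap in it. Nfe2l2, the partner of small Maf proteins in the oxidative stress response, was at 176 ± 3.0, 201 ± 12 and 253 ± 1.2 CPM in SRC3, FRC1 and PAR, 1.44-fold lower in SRC3 than in PAR (-0.52, adjusted p = 5.03e-08).

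**Figure D5:**
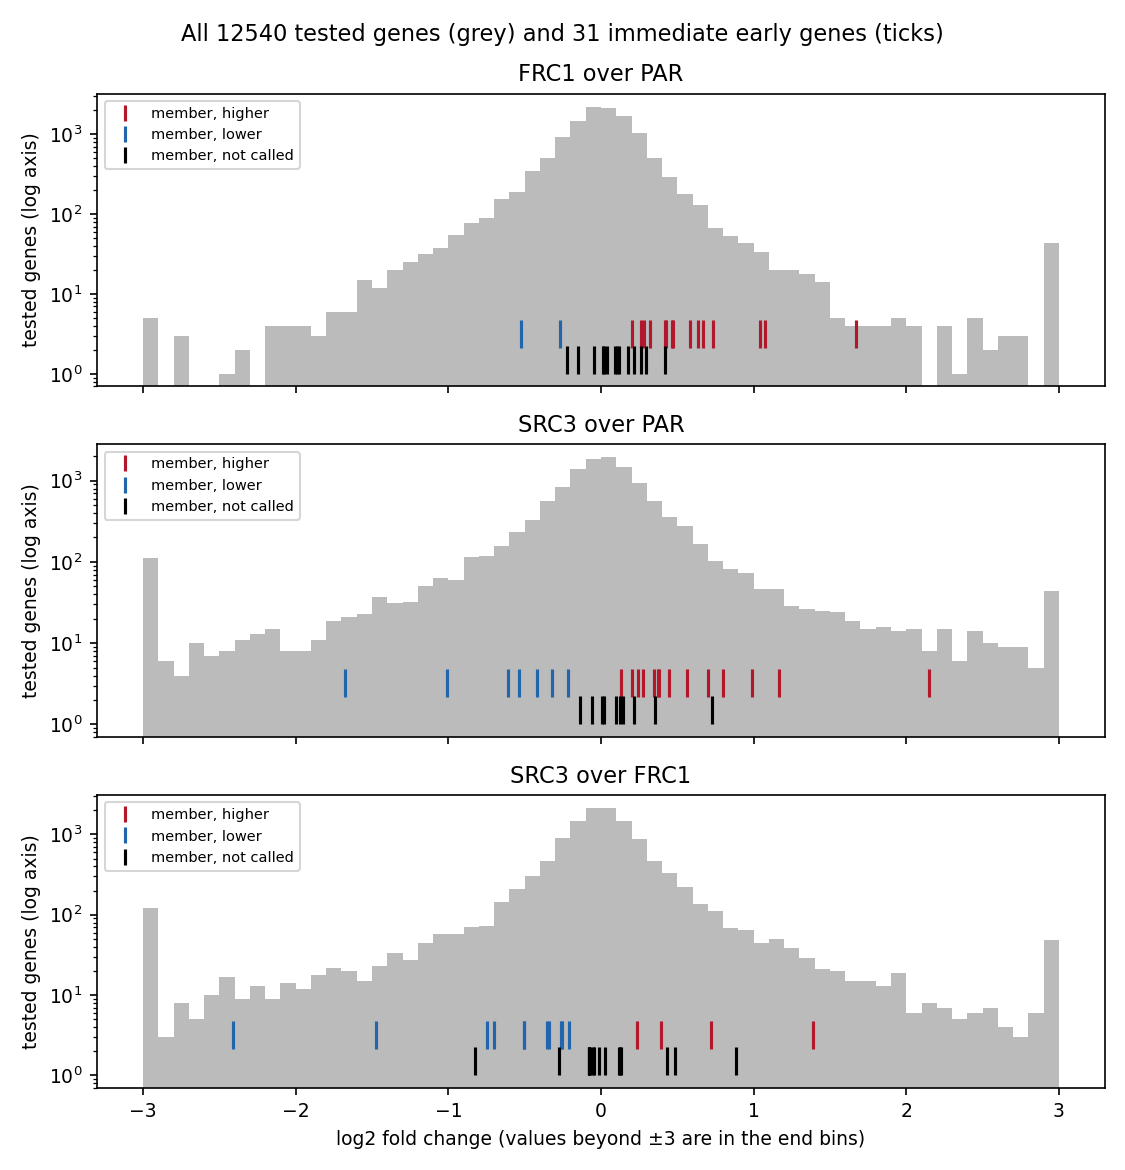
Log2 fold change (x axis, values beyond ±3 in the end bins) of all 12540 tested genes (grey histogram, log axis of gene number) in FRC1 over PAR, SRC3 over PAR and SRC3 over FRC1, with a tick for each of the 31 tested immediate early genes, red where called higher, blue where called lower and black where not called. Most ticks lie within 1 log2 unit of 0, with Fosb at 2.15 in SRC3 over PAR and Nr4a2 at -2.41 in SRC3 over FRC1 as the outermost.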

How the data were processed

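The authors deposited unnormalized whole-number counts of reads, 1 table for each of 9 libraries. Per the submitters' processing notes the build was GRCm38 and the tools included DESeq2, HTSeq 0.9.1 and HISAT2 2.1.0, and, per the labels, libraries followed a stranded TruSeq protocol and every RNA had the top integrity score. The 5 summary lines that name no gene in each file, among them reads in no gene (5.92% or more of uniquely aligned reads), stayed out of library sizes. Groups came from the sample titles. Genes were kept with filterByExpr at its defaults (edgeR 4.0.16, R 4.3.3), which left 12540, scaled by TMM (factors within 1.2% of 1) and fitted in 1 model of all 9 libraries with 6 residual degrees of freedom. Each pair of groups was compared with the two-sided quasi-likelihood test, adjusted over all tested genes by Benjamini-Hochberg at 0.05. Replicates differed beyond sampling noise (chi-square per degree of freedom 1.81 to 7.47). The test was run on simulated counts with known changes first. The members, the linked lists and the naming rule were chosen with earlier results of these data known. Full statistics are given for up to 8 called members per direction and comparison averaging 1 CPM or more in the group where they were higher, by largest log2 fold change, and for up to 3 called genes of a linked list, of which 1 is counted with its list but not reported here by name. Alternatives were RLE or no factors, no filter, 5 CPM in 3 libraries, DESeq2 1.42.0, the 2 groups alone, a replicate block and each library left out. Gene locations and exonic lengths came from GENCODE M21, which matched 47224 of 47729 identifiers. Reads without molecular identifiers are not independent molecules, so the floor of 3 counts reflects counting error alone.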

Additional observations from a re-analysis of the deposited data

How the results depend on the processing

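No result changed direction while called under any of 16 alternatives; 13 differences that were not called changed sign under at least 1 of them. Of the members called, 12 of 17 in FRC1 over PAR, 14 of 21 in SRC3 over PAR and 13 of 15 in SRC3 over FRC1 were called under all alternatives in which they could be tested. With a library left out, the genes called in FRC1 over PAR numbered 2327 (without FRC1 replicate 3) to 3987, against 3550 with all. The immediate early genes lower in FRC1 than in PAR numbered 1 (without PAR replicate 1 or FRC1 replicate 2) to 2, and those higher in SRC3 than in FRC1 numbered 4 to 9 (9 without FRC1 replicate 2, 7 without SRC3 replicate 2). The cause of these shifts was not tested. With the replicate number as a block, 3560, 4798 and 4221 genes were called in FRC1 over PAR, SRC3 over PAR and SRC3 over FRC1, and the members called were 15 higher and 2 lower, 14 and 8, and 6 and 12; the block added calls for Klf2 (FRC1 over PAR, 0.039, and SRC3 over FRC1, 0.047), Jun (SRC3 over PAR, 0.048), and Fosb (0.041) and Zfp36l1 (0.045) in SRC3 over FRC1, and lost Ptgs2 in FRC1 over PAR (0.055). Deviations of same-numbered libraries correlated at -0.0704 to 0.118, so the numbers were not taken to pair the samples. Members with few reads, Nr4a3, Fos and Egr2, are limited by depth, since 3 counts correspond to 0.209 to 0.231 CPM.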
